A study of Homo sapiens with 4 samples.

Results

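The 9 genes described here are transcription factors that set up the mesendoderm and the endoderm: FOXA1, FOXA2, GATA4, GATA6, HNF4A, HHEX, LHX1, EOMES and MIXL1. They were taken as a list by their known roles, with earlier results of these data known. Their levels were read from expression arrays of 4 established human germ cell tumour cell lines. Of the 9, 8 had at least 1 probe set annotated to that gene alone and all 8 were compared, among 15001 genes compared in all. HNF4A had no such probe set and is not analysed here. Each gene is given by the probe set with the highest mean intensity over the lines. Intensities are on a linear scale in arbitrary units, and values under 76.4, the median of all of them, were raised to it and given no order.

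The labels give TCam-2 as the seminoma line, NT2D1 as teratoma, GCT27 as embryocarcinoma (embryonal carcinoma) and GCT44 as yolk sac tumour, each with 1 array of total RNA. The lines came from testicular germ cell tumours, NT2D1 from a lung metastasis, and were cultures with no treatment named, kept in medium with 10% fetal bovine serum and 1% penicillin and streptomycin. TCam-2 was grown in RPMI-1640 and the others in Dulbecco's medium, so for that line its medium cannot be told apart from its subtype. Each subtype stands on 1 line, and no line has a replicate, so the differences below have no replicate check and no p-value. NT2D1 is widely used as a model of undifferentiated embryonal carcinoma, so under its teratoma label it does not stand for differentiated teratoma tissue.

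In the embryo, NODAL signals through SMAD proteins and their partner FOXH1 to switch on EOMES and MIXL1 in cells that leave the pluripotent state. FOXA2, LHX1, the GATA factors and HHEX then act in early endoderm, with FOXA proteins opening closed chromatin for other factors and HNF4A driving plasma protein genes of the liver and of the visceral endoderm, the layer that covers the early embryo. Yolk sac tumours are germ cell tumours that resemble this extra-embryonic endoderm, and seminomas resemble primordial germ cells.

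Shown are the promoters of 3 factors that were highest together in GCT44, as described further on, and that of MIXL1. They are given to set their sequence beside their levels. MIXL1 was near or below the floor in every line. Capitals mark CpG dinucleotides, the sites at which DNA can be methylated, and each sequence is the 250 bases before the transcription start in RefSeq, build GRCh38.p14, read 5′ to 3′ along the gene. The FOXA1 window is chr14:37595250-37595499 on the minus strand, that of GATA6 is chr18:22169339-22169588 on the plus strand, that of EOMES is chr3:27722324-27722573 on the minus strand and that of MIXL1 is chr1:226223414-226223663 on the plus strand.
FOXA1: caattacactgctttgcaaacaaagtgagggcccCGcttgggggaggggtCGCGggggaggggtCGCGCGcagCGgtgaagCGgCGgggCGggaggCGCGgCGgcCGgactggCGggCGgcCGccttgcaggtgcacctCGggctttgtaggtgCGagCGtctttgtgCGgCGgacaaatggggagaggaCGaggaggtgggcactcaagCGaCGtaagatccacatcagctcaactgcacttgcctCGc
GATA6: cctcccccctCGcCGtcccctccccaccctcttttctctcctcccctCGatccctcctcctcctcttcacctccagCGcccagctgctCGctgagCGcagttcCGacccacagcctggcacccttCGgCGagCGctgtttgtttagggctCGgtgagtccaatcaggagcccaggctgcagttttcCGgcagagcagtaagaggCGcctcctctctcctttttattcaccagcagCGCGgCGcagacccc
EOMES: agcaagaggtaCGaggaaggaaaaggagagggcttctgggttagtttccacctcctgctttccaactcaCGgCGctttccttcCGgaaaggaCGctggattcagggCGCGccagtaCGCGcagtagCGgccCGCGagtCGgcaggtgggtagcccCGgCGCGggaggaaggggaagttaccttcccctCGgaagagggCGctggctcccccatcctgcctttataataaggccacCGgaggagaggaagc
MIXL1: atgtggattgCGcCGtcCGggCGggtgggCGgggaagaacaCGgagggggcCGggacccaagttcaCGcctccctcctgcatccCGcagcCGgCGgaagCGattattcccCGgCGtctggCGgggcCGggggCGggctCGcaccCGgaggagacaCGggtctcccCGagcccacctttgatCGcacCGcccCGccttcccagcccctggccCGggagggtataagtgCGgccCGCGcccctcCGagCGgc

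Promoters of 6 of the factors were used, those of HHEX and HNF4A besides the 4 shown. Any RefSeq entry for GATA4 was left out. FOXA2 and LHX1, which had the widest margins in GCT44, had no promoter among those used and are absent from the counts below. The window of FOXA1 held 26 CpG sites, that of EOMES 19 and that of GATA6 16, against a median of 11 over 35116 promoters. MIXL1 had 30 and HHEX 38, the most among the measured factors whose promoters were used. Neither reached a 4-fold range over the lines on floored values, where they peaked at only 93.1 and 142 units, near the floor. With no floor, HHEX in NT2D1 lay at -2.51 on the log2 scale relative to TCam-2, and MIXL1 in GCT44 at 3.025 relative to NT2D1. A link between CpG sites and levels was not tested. The 2 HNF4A promoters had 8 each. These windows were also searched on both strands for short words. FOXA1 held the forkhead word TGTTTGC on the opposite strand, beginning 235 bases before its start, and a forkhead word (TGTTTGC or TGTTTAC) was found in 6.09% of all promoters. MIXL1 held the FOXH1 word TGTGGATT, 249 bases before its start, and this word or TGTGTATT was found in 1.37% of promoters. GATA6, EOMES and HHEX held none of these, no GATA word (AGATAA or else AGATAG, or the forms TGATAA or else TGATAG, in 22.3% of promoters), not the T-box word TCACACC (2.76%) and not the homeodomain word TAATTA (4.35%). Each HNF4A promoter held 1 GATA word, and 1 of them held TAATTA. DNA methylation of these windows is not analysed here.

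Of the 8 factors measured, 5 were at least 4-fold higher in GCT44 than in any other line: LHX1, FOXA2, EOMES, GATA6 and FOXA1. Of all genes compared, 1.84% met that rule in GCT44. No factor was at least 4-fold above the next line in TCam-2, NT2D1 or GCT27, where 1.57%, 0.567% and 0.627% of genes were. None was at least 4-fold below the nearest line in TCam-2 (0.753% of genes), NT2D1 (0.253%), GCT27 (0.327%) or GCT44 (1.69%). Set against the mean of the remaining lines, GCT44 had a median log2 difference of 4.03 over the 8 factors and of -0.05 over all genes. In these bulk cultures, more cells that hold a transcript and more of it per cell cannot be told apart.

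**Figure D1:**
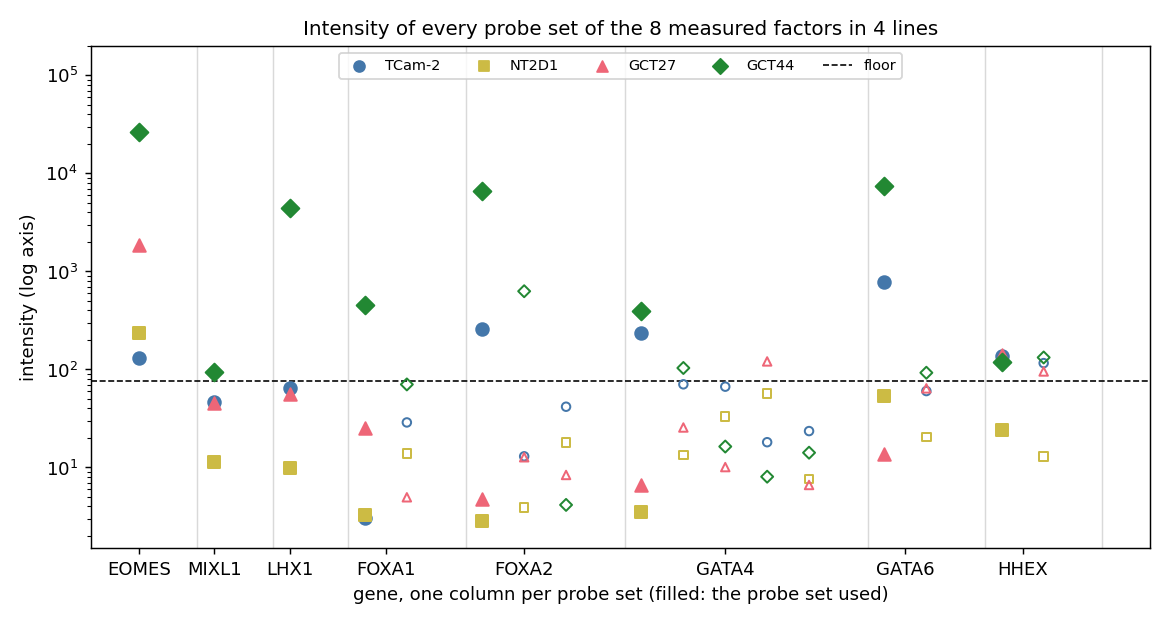
Intensity of every probe set of the 8 measured factors in TCam-2, NT2D1, GCT27 and GCT44, on a log axis, with 1 column per probe set, filled symbols for the probe set used and the floor of 76.4 as a dashed line. GCT44 is the top symbol for the probe set used of 7 factors, TCam-2 is next for FOXA2, GATA4 and GATA6, and GCT27 is next for EOMES.

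EOMES is a T-box factor that starts the mesendoderm programme. Its intensity was 26237 in GCT44, 1876 in GCT27, 238 in NT2D1 and 129.8 in TCam-2. It was the only factor above the floor in all 4 lines. GCT44 was 14.0-fold above GCT27 and 202-fold above TCam-2. GCT27 was itself 7.88-fold above NT2D1 and 14.5-fold above TCam-2, while NT2D1 and TCam-2 differed by 1.84-fold, less than the 4-fold rule. EOMES was the only factor of the 8 at least 4-fold higher in GCT27 than in TCam-2, as were 3.86% of genes, and than in NT2D1, as were 2.65%. It has a single probe set on this array.

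MIXL1, a homeodomain factor of the primitive streak that acts beside EOMES, did not share this pattern. It had 93.1 units in GCT44, 46.2 in TCam-2, 45.6 in GCT27 and 11.4 in NT2D1. Only GCT44 lay above the floor, by 1.22-fold. MIXL1 thus lay at or near the floor in the line with the highest EOMES level.

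LHX1, a LIM homeodomain factor of early endoderm, of the head organizer and of the kidney, had the widest margin of the 8. It had 4469.6 units in GCT44, 64.6 in TCam-2, 56.0 in GCT27 and 9.91 in NT2D1. All lines but GCT44 were below the floor and have no order among them, and GCT44 was at least 58.5-fold higher. That margin of 5.87 on the log2 scale ranked 9 among the 15001 genes for GCT44. Like EOMES and MIXL1, LHX1 has only 1 probe set on this array.

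The FOXA factors bind nucleosomal DNA and open it for others. FOXA2 had 6631 units in GCT44, 259 in TCam-2, 4.77 in GCT27 and 2.83 in NT2D1. GCT44 was 25.6-fold above TCam-2 and at least 86.8-fold above GCT27 and NT2D1, both below the floor. TCam-2 was at least 3.39-fold above those lines, short of the rule of 4-fold. A further FOXA2 probe set placed GCT44 alone above the floor, with 629 units against at most 13.0, and did not show the level in TCam-2. The other FOXA2 probe set lay below the floor in all lines. FOXA1 had 457 units in GCT44, 25.4 in GCT27, 3.28 in NT2D1 and 3.05 in TCam-2, so GCT44 was at least 5.98-fold higher. Its other probe set peaked in GCT44 at 70.4 units, under the floor. With the floor at the 70th percentile (252 units) the margin of FOXA1 was 0.86 on the log2 scale, and with the median over probe sets it was 1.23, both short of the rule.

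GATA4 and GATA6 are zinc finger factors of endoderm and heart, and GATA6 also starts the primitive endoderm. GATA6 had 7451 units in GCT44, 779.8 in TCam-2, 53.2 in NT2D1 and 13.7 in GCT27. GCT44 was 9.55-fold above TCam-2, and TCam-2 in turn was at least 10.2-fold above NT2D1 and GCT27, which were both below the floor. GATA6 was the only factor at least 4-fold higher in TCam-2 than in NT2D1 (4.35% of genes) and than in GCT27 (3.74% of genes). Its second probe set was dim, with 92.6 units in GCT44 and the other lines below the floor. With the median over both, the margin of GCT44 was 1.94 on the log2 scale, just short of the rule, and the excess of TCam-2 over NT2D1 and GCT27 no longer met it. With the floor at the 70th percentile that excess was short of the rule too, NT2D1 and GCT27 each lying at -1.63 relative to TCam-2.

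GATA4 had 399.6 units in GCT44, 235 in TCam-2, 6.68 in GCT27 and 3.52 in NT2D1. GCT44 and TCam-2 differed by 1.70-fold, within the rule, while GCT44 was at least 5.23-fold and TCam-2 at least 3.07-fold above both remaining lines. Its 5 probe sets did not give the same picture. A second one had 104 units in GCT44 and 70.5 in TCam-2, another had 121 in GCT27 with the other lines below the floor, and the remaining ones were below the floor throughout. Chosen by the highest mean log2 value, the probe set for GATA4 was that second one, and the difference of GCT44 from NT2D1 and GCT27 was then 0.44 on the log2 scale. With the floor at the 70th percentile it was 0.66, so both alternatives ended that call.

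HHEX, a homeodomain repressor of anterior endoderm and liver, showed no such contrast. It had 142 units in GCT27, 136 in TCam-2, 118 in GCT44 and 23.9 in NT2D1. The first 3 lines lay within 1.20-fold of one another, and NT2D1 was below the floor, at least 1.86-fold under GCT27. The other HHEX probe set had 133 units in GCT44, 116 in TCam-2, 95.4 in GCT27 and 12.9 in NT2D1, so the order of the first 3 lines differed between probe sets while NT2D1 was lowest in both. Centring on the median, the median over probe sets and leaving out suffix _s_at or _x_at each put TCam-2 above GCT27.

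Between single pairs of lines, GCT44 was at least 4-fold above TCam-2 for the same 5 factors as above (4.58% of genes). It was so above NT2D1 (3.98% of genes) and above GCT27 (4.37% of genes) for 6, with GATA4 as the sixth. The range over the 4 lines reached 4-fold for those 6 factors, and for 21.1% of all genes. TCam-2 was the second highest line for FOXA2, GATA4 and GATA6, and NT2D1 was above the floor for EOMES alone. Without GCT44, GATA6 in TCam-2 and EOMES in GCT27 would be the factors at least 4-fold above the next line. Of the 15001 genes, 334 would be so in TCam-2 and 153 in GCT27. Without TCam-2, GATA4 in GCT44 would also meet the rule, at 2.39 on the log2 scale, where 371 of all genes would.

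**Figure D2:**
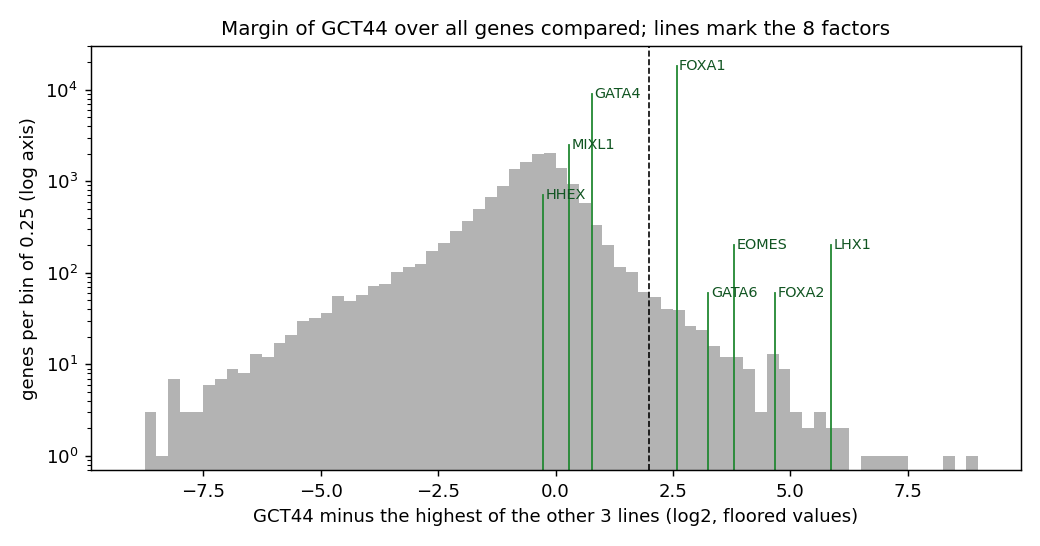
Histogram of the margin of GCT44 over the highest of the other 3 lines, in log2 of floored values, for the 15001 genes compared, with a log count axis; the dashed line is the rule of 2 and green lines mark the 8 factors. LHX1 (5.87), FOXA2 (4.68), EOMES (3.81), GATA6 (3.26) and FOXA1 (2.58) lie beyond the rule, and GATA4 (0.77), MIXL1 (0.29) and HHEX (-0.27) do not.

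The array of GCT44 stood apart in some controls. Its 3'/5' signal ratio was 4.21 for ACTB against 2.49 to 2.97 on the others, while for GAPDH it was 1.04, within the 0.898 to 1.09 of the others. The spiked-in controls read 0.30 higher there than their log2 mean over the arrays, and 0.25 lower in GCT27 (-0.25). Scaled to those controls, the margins of the 5 factors were 5.56 for LHX1, 4.37 for FOXA2, 3.26 for EOMES, 2.94 for GATA6 and 2.27 for FOXA1, all still past the rule. This scaling moved the median difference of all genes in GCT44 from -0.05 to -0.31, and the counts over all genes from 276 higher and 254 lower to 201 and 309.

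The lines were checked against markers of their labelled subtypes. In TCam-2, 3 of 6 seminoma markers met the rule as higher: SOX17 (3819 units, a log2 margin of 5.64 over the floor), CXCR4 (11729 units, 26.7-fold) and TFAP2C (20557 units, 8.42-fold). KIT, a further seminoma marker, had its lowest value there, with 1144 units against 1771 in GCT44. In GCT44, APOA2, APOA1 and TTR of 6 yolk sac tumour markers were higher, while AFP, the serum marker of these tumours, had 372 units against 126 in NT2D1 and did not meet the rule. GPC3, also a yolk sac tumour marker, was highest in NT2D1 (2578 units) and had 740.3 in GCT44 and 677 in TCam-2. Of 4 measured embryonal carcinoma markers, 0 met the rule as higher in GCT27, where 3 had their highest value. SOX2 had 18309 units in GCT27 and 20575 in NT2D1. SOX2 and FGF4 were below the floor in GCT44, at least 5.12-fold and at least 4.50-fold under the nearest line. In GCT44, neither call was left with the median over probe sets or with the higher floor. The seminoma markers TFAP2C and PDPN were lower there as well, at least 24.9-fold and at least 23.4-fold. Of 4 measured pluripotency markers, 3 were lower in GCT44: NANOG (2.29 units against at least 13322), L1TD1 (77.5 against at least 12713) and DPPA4 (12.5 against at least 6084). The fourth, LIN28A, had 17340 units there. NT2D1, labelled as teratoma, had all 4 above the floor.

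Of the factors, EOMES and MIXL1 are switched on by NODAL signals in the embryo. Of 15 NODAL pathway genes compared, none was at least 4-fold higher or lower in GCT44, where 5 had their highest value and the list median was 0.30 on the log2 scale against -0.05 for all genes. In GCT27, 6 had their highest value, 2 of them past the rule, and the median was 0.17. NODAL itself had 864 units in GCT27, 128 in NT2D1, 81.1 in TCam-2 and 80.5 in GCT44, 6.73-fold higher in GCT27. LEFTY1, a secreted NODAL antagonist and target, had 1255 in GCT27 and 115 in NT2D1 and was below the floor in TCam-2 and GCT44, 10.9-fold higher in GCT27. Of these calls 1 was left with the median over probe sets and 1 with the higher floor. The highest NODAL level thus lay in the line with the second highest EOMES level. FOXH1, singled out after its values were seen, had 2420 units in GCT44, 913 in GCT27, 569 in NT2D1 and 365 in TCam-2, a margin of 1.41 that did not meet the rule.

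Other factors of mesendoderm and endoderm split between lines. Of 9 compared, FOXA3, a further FOXA paralog, and SP5, a WNT target, were higher in GCT44, SOX7 was lower there and SOX17 was higher in TCam-2. FOXA3 had 2506 units in GCT44, 249.8 in GCT27, 87.8 in NT2D1 and 29.2 in TCam-2, 10.0-fold higher. SP5 had 1031 units in GCT44 and 91.6 to 167 elsewhere, 6.18-fold higher. SOX7, an endoderm SOX factor, had 5.32 units in GCT44 against 926 in GCT27, 573 in TCam-2 and 377 in NT2D1, at least 4.93-fold lower. SOX17, the SOX factor that marks definitive endoderm and human germ cells, had 3819 units in TCam-2. It was below the floor in the others, with 44.2 in GCT27, 42.7 in GCT44 and 10.4 in NT2D1. The line with the highest FOXA2 and GATA6 therefore had 2 endodermal SOX factors below the floor. For SOX17 it shared this with NT2D1 and GCT27. Neither the median over probe sets nor the floor at the 70th percentile kept the SOX7 call. TBXT, a T-box factor of this list, was below the floor in GCT44 with 23.7 units. It had 276 in TCam-2, 233 in GCT27 and 144 in NT2D1, so GCT44 was at least 1.88-fold under the nearest line, within the rule. GSC was below the floor in every line and not compared. Of the 9 compared, 4 had their highest value in GCT44.

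Among 15 paralogs of the factors, 4 were higher in GCT44 and 0 lower. Besides FOXA3 these were the T-box repressor TBX2 (832 units, at least 10.9-fold), HNF4G, the paralog of HNF4A (484 units, at least 6.33-fold), and LHX9 (378 units, at least 4.95-fold). GATA3, a paralog with roles in trophoblast, was lower in GCT27, with 283 units against 1806 in NT2D1, 5874 in TCam-2 and 17360 in GCT44, 6.39-fold below the nearest line. The list median in GCT44 was 0.09. The 4 calls became 1 with the median over probe sets or with the higher floor.

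Cofactors of the factors were mostly within the rule. Of 14 compared, ZFPM2, which binds GATA factors and modulates them, was higher in GCT44, with 1135 units there and 33.7 to 69.9, below the floor, elsewhere, at least 14.8-fold. Its paralog ZFPM1 had 105 to 163 units in all lines. LDB2, a bridging protein for LIM homeodomain factors, was higher in NT2D1, with 942 units against 233 in GCT27 and values below the floor in TCam-2 and GCT44, a margin of 2.01 on the log2 scale that fell short with the median over probe sets, without probe sets of suffix _s_at or _x_at, with the higher floor and when scaled to the spiked-in controls. Its paralog LDB1 had 179 to 237 units in all lines. The list median in GCT44 was -0.21.

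Of 10 other hepatic transcription factors compared, 4 met the rule as higher in GCT44, none met it as lower, and the list median was 2.61. Besides FOXA3 and HNF4G, already counted above, these were PROX1 (619 units, 7.51-fold), a homeodomain factor of the liver bud, and ONECUT2 (699 units, 4.21-fold). CEBPB was higher in TCam-2, with 10212 units, 4.17-fold, a call lost when scaled to the spiked-in controls. The count in GCT44 fell to 2 with the median over probe sets and to 1 with the higher floor.

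Plasma proteins are textbook targets of HNF4A and the FOXA factors. Of 18 compared, 7 were higher in GCT44, 0 lower, and 16 had their highest value there, with a list median of 1.76. Of all 15001 genes, 4025 had their highest value in GCT44. The exceptions were APOB, highest in GCT27 with 227 units, and RBP4, highest in NT2D1 with 87.0, both below the floor in GCT44. Some margins among the 16 were small, such as 1.02-fold over the floor for APOH. The widest margins were those of APOA2 (38064 units, at least 498-fold), APOA1 (3067 units, 26.0-fold), FGG (1771 units, at least 23.2-fold), APOM (1725 units, 10.2-fold), AMBP (585 units, at least 7.66-fold) and TTR (478 units, at least 6.26-fold). The count was 4 with the floor at the 70th percentile and 2 without probe sets of suffix _s_at or _x_at, which can match several transcripts. None of 12 effectors of extra-embryonic endoderm, which include basement membrane chains, met the rule in any line. In GCT44 only 1.84% of all genes met it as higher. The list median there was 0.63, and 4 of the 12 had their highest value in GCT44. LAMA1 had 2671 units in GCT44 and 1002 to 1851 elsewhere, and LAMB1 had 12538 in TCam-2, 8419 in GCT44, 3859 in NT2D1 and 2092 in GCT27. Others were lowest in GCT44, among them SPARC, with 1876 units there against 7191 to 13304 elsewhere, 3.83-fold below the nearest line. LRP2 had 136 units there and 209 to 1606 elsewhere. In GCT44, 1 of these effectors met the rule as lower with the median over probe sets, without probe sets of suffix _s_at or _x_at, and when scaled to the spiked-in controls.

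**Figure D3:**
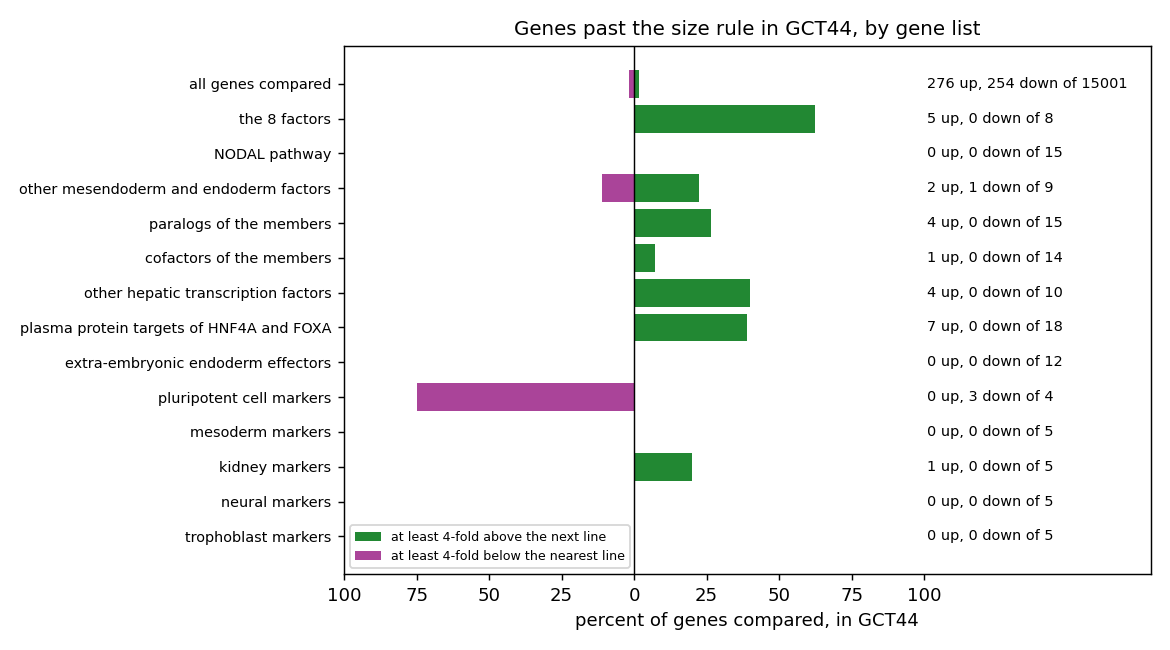
Share of each gene list at least 4-fold above the next line (green, to the right) or below the nearest line (purple, to the left) in GCT44, as percent of the genes compared, with counts at the right. The 8 factors (5 up), hepatic transcription factors (4 of 10) and plasma proteins (7 of 18) lie to the right and pluripotency markers (3 of 4) to the left, beside 276 up and 254 down of 15001 genes.

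The factors also work outside endoderm, so markers of other tissues were read beside them. Of 5 kidney markers, PAX2 was higher in GCT44 (355 units, at least 4.64-fold), while WT1 was below the floor there. The PAX2 call was lost with the median over probe sets, with the higher floor, with the probe set of highest mean log2 value and under scaling to spiked-in controls. The summed intensity of the kidney list was 1042 in GCT44 and 602 to 1433 elsewhere. None of 5 mesoderm markers compared met the rule in GCT44. MEF2C was highest there (751 units, 3.62-fold over the next line), HAND1 had 399 units, below its 568 in TCam-2, and TBX5 and NKX2-5 were below the floor. HAND2 and TBX20 were below the floor in every line and not compared, and KDR was higher in GCT27 (1126 units, 5.95-fold). The mesoderm sum was 1404 in GCT44 and 852 to 1521 elsewhere. None of 5 neural markers met it in any line. PAX6 was above the floor in NT2D1 alone, with 85.3 units, and SOX1 in none. OTX2 had 9762 units in GCT44 and 9043 in NT2D1 against 749.9 and 892 in the others, and LHX2 had 1516 in GCT44 and 1909 in NT2D1 against 145 and 157. The neural sum, mostly OTX2, was 11596 in GCT44 and 1582 to 13392 elsewhere. Of 5 trophoblast markers, none met it as higher in GCT44, and CGA, KRT7 and TFAP2A were higher in TCam-2, at least 60.5-fold, at least 19.3-fold and 5.88-fold, of which 1 call was left with the median over probe sets. These 3 were below the floor in GCT44. The trophoblast sum was 17807 in GCT44, of which GATA3 gave 17360, and 595 to 16984 elsewhere. Of 3 liver and gut markers compared, VIL1, a microvillus protein, was higher in GCT44 (1738 units, at least 22.7-fold), while the gut markers CDX2 and CDH17 were below the floor in all lines, and ALB had 118 units in GCT44. The liver and gut sum was 2143 in GCT44 and 172 to 303 elsewhere. The part of such cells in the levels of the factors was not tested.

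Genes next to the factors in the genome were read as well, up to 4 genes away on each side in the RefSeq order. Of 13 such neighbours compared, 3 were higher in GCT44. LINC00261, the long non-coding RNA next to FOXA2, had 2743 units in GCT44, 38.5 in GCT27, 19.5 in TCam-2 and 7.49 in NT2D1, at least 35.9-fold higher. It was below the floor in TCam-2, where FOXA2 had 259 units. GATA6-AS1, the antisense RNA next to GATA6, had 533 units in GCT44, 77.6 in TCam-2, 77.3 in NT2D1 and 49.2 in GCT27, 6.87-fold higher. In TCam-2 it was at the floor, where GATA6 had 779.8 units. CYP26A1, a retinoic acid hydroxylase 3 genes from HHEX, had 15576 units in GCT44, 724 in GCT27, 453 in NT2D1 and 47.4 in TCam-2. It was 21.5-fold higher in GCT44, while HHEX itself had 118 units there and 142 in GCT27. The direct neighbours EXOC6 of HHEX, AATF of LHX1 and LIN9 of MIXL1 did not meet the rule, and TTC6, next to FOXA1, was below the floor in all lines. These neighbours were chosen for mention after their values were seen.

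**Figure D4:**
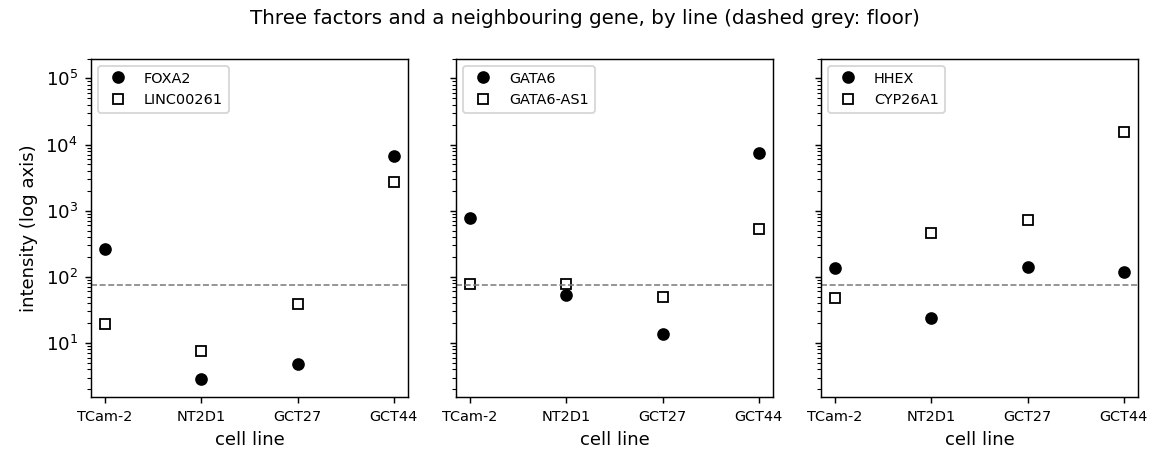
Intensity by line, on a log axis, of FOXA2, GATA6 and HHEX (filled circles) and of LINC00261, GATA6-AS1 and CYP26A1 (open squares), with the floor as a dashed grey line. Both genes of the first 2 panels are highest in GCT44 and only the factor is clearly above the floor in TCam-2; in the third panel CYP26A1 reaches 15576 in GCT44 while HHEX stays between 23.9 and 142.

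Likeness of pattern was measured as the distance between log2 profiles over the 4 lines, each centred on its own mean, for the 6 factors with a 4-fold range, and 4 points leave many genes alike. The nearest genes to GATA6 were TSPYL5, at 0.71, then FOXA2, at 1.34, and ESRRG, at 1.35, so a factor of the list was the second nearest of all genes. The nearest to FOXA2 were TRPA1 (0.93), FMOD (1.14) and BMP2 (1.21). BMP2, a secreted growth factor, had 6081 units in GCT44, 236 in TCam-2, 189.5 in NT2D1 and 20.6 in GCT27. The nearest to EOMES were PCDH10 (0.77), CHST9 (1.03) and DSEL (1.54), which share its second place in GCT27. For LHX1 they were EPHA3 (0.12), MAGEA1 (0.22) and CCDC81 (0.37), and for GATA4 ZBTB46 (0.09), TSHZ1 (0.17) and KLF2 (0.21). For FOXA1 they were ISX, ECM2 and PRDM16, all below the floor outside GCT44, so that this likeness reflects the height in GCT44 alone. The same holds for LHX1 with EPHA3 and MAGEA1, also below the floor outside GCT44. MAGEA1 has near-identical paralogs, so which of them was measured is uncertain.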

How the data were processed

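Gene expression was measured on 1 array for each of 4 cell lines, with 54675 probe sets. What the authors deposited is 1 intensity per probe set. RMA, a method that usually gives log2 values, is named per the submitters' processing notes with no version. After trimming 2% at each end the mean of every array was 500.1, so the deposited intensity values were read as linear and scaled to a common mean, and their log2 was computed afterwards. Background correction and scaling steps are not given in the sources used here. The number of arrays limits the precision.

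Of the probe sets, 41097 had 1 gene symbol in the platform annotation, 1801 had several and 11777 had no entry. Symbols were updated through Entrez identifiers. A gene took the probe set with the highest mean intensity and was compared where its highest value reached 76.4, the median of all values, to which lower values were raised. A gene was called higher or lower when it lay at least 2 on the log2 scale (4-fold) beyond the nearest other line. This is a rule of size without an error rate, and "at least" marks a fold against the floor. The mean of log2 values was not used to choose probe sets, since values below the floor then decide: it took the dim probe set for FOXA1.

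The factors and the 16 lists were chosen with earlier results of these data known, and a gene in several lists counts in each. Named were all factors, the list members past the rule (at most 6 for each list and line, widest margins first), the first 2 of a list without any, and the 3 genes nearest in pattern. Other genes named (FOXH1, KIT, GPC3, AFP, ALB, LIN28A, ZFPM1, LDB1, WT1, OTX2, LHX2, the gut markers, mesoderm markers other than KDR and the genomic neighbours) were chosen after their values were seen. So were SPARC, LRP2, TBXT, GSC, APOB, RBP4 and APOH. Alternatives fixed beforehand were the median over probe sets, leaving out probe sets of suffix _s_at or _x_at, no floor, a floor at the 70th percentile, centring on the median, quantile normalization, scaling to spiked-in controls, a threshold of 1, and a comparison with the mean of the other lines. The mean log2 choice and leaving out each line were added after the data were seen. Promoters and gene order came from RefSeq, build GRCh38.p14. The rule was tested on simulated data in which only genes far above the floor were changed, by more than the rule. Changes near the floor were not covered by that test. Python 3.11.15, pandas 2.3.3 and numpy 2.4.6 were used.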

Additional observations from a re-analysis of the deposited data

How the results depend on the processing

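The number of factors higher in GCT44 was 5 as reported, 3 with the median over probe sets, 4 with the floor at the 70th percentile, 4 with the probe set of highest mean log2 value, where FOXA1 no longer reached the floor, and 5 under the remaining fixed alternatives. The number lower in NT2D1 was 0 as reported and 2 with no floor. Against the mean of the other lines it was 3, with 1 lower in TCam-2 and 2 in GCT27. Leaving out each line in turn gave 5 to 6 higher in GCT44, 0 to 1 lower in NT2D1, TCam-2 and GCT27, 0 to 1 higher in TCam-2 and GCT27, and 2 to 6 with a 4-fold range, the 2 being without GCT44. Of the recomputed differences of single factors, 465 stayed on their side of the rule, 18 fell short of it and 18 newly passed the threshold in use. Of the last, 13 came with no floor, where values below 76.4 are read, and 4 with a threshold of 1, where the values themselves did not change. Over all genes in GCT44, 276 higher and 254 lower became 198 and 135 with the median over probe sets, 378 and 766 with no floor, 155 and 97 with the higher floor, 755 and 685 with a threshold of 1, and 493 and 625 against the mean of the other lines. GATA4 had no value with the median over probe sets, HHEX and MIXL1 had none with the higher floor, and MIXL1 had none when scaled to the spiked-in controls, since they no longer reached the floor. Signal near the floor limits MIXL1, HHEX, GATA4 and FOXA1 most. No paired analysis was possible because each line has 1 array.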
